A study of Homo sapiens with 16 samples.

Results

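The 35 genes described here belong to homologous recombination and the Fanconi anemia pathway. They were taken by symbol, whatever their values, and all 35 were found among the 60605 Ensembl identifiers counted. PRO-seq locates RNA polymerases in the act of transcription by letting them extend their transcripts in isolated nuclei. It was applied to LNCaP, a long-established line of human prostate cancer cells. The samples form 6 groups in 2 batches, with 2 replicates per group. In batch 1, mock-treated cells (replicates 1 and 2) were compared with cells given 6 Gy of ionizing radiation (IR), and each replicate has a library named t1 and a library named t2, whose counts were summed. In batch 2 (replicates 3 and 4), cells received the solvent DMSO for 90 min ("vehicle"), or 10 µM enzalutamide, an antiandrogen drug used in prostate cancer, for 90 min. The other batch 2 groups had the solvent or 10 µM enzalutamide for 30 min before 6 Gy and 60 min of incubation after it. The labels do not say how long batch 1 cells were kept after radiation, nor what t1 and t2 stand for. Nothing in the labels says that replicates were separate cultures, so the p-values measure the spread between these samples, which may be technical.

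Homologous recombination repairs a broken chromosome from the intact sister copy. Broken ends are resected by MRE11, RAD50 and NBN with the help of RBBP8 (CtIP). BRCA1 and BARD1, joined through PALB2 to BRCA2, then load the recombinase on the single strand, and RAD51B, RAD51C, RAD51D, XRCC2 and XRCC3, paralogs of the recombinase, assist it. Helicases and nucleases resolve the joined molecules. The Fanconi core complex and the ubiquitin-conjugating enzyme UBE2T attach ubiquitin to FANCD2 and FANCI when a fork meets a crosslink, which directs nucleases to the lesion. In prostate cancer, inherited or acquired loss of BRCA2 and related genes is a known basis for treatment with PARP inhibitors.

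The libraries held 3438642 to 9363458 counts in batch 1, or 8022989 to 16851473 per replicate after summing, and 10494563 to 19905824 counts in batch 2. The members took 0.229 to 0.246% of the counts in batch 1 and 0.292 to 0.310% in batch 2. Mitochondrially encoded genes took 2.86 to 5.38% and 0.570 to 0.934%. Levels are therefore given as CPM (counts scaled to the library total, with TMM factors within a batch), and levels of the batches are not compared. Among markers of LNCaP cells, the group means of FOLH1 lay between 1014 and 1232 CPM, of TMPRSS2 between 282 and 475 CPM, of KLK2 between 102 and 214 CPM, of KRT8 between 58.3 and 117 CPM and of KRT18 between 33.4 and 79.1 CPM. KLK3 had 180 and 144 CPM in the groups of batch 1 and 7.25 to 15.3 CPM in those of batch 2. The summed levels of 3 leukocyte markers were 0.831 to 1.20 CPM, of 3 basal epithelial markers 4.40 to 6.84 CPM, of 3 fibroblast markers 10.2 to 13.7 CPM and of 3 endothelial markers 15.7 to 36.6 CPM, most of it VWF. Radiation was visible in each arm at the p53 target CDKN1A, with log2 fold changes of 3.65 in batch 1, 3.02 under vehicle and 2.88 under enzalutamide. The androgen-responsive genes TMPRSS2 and ZBTB16 fell by 0.58 and 0.83 on the log2 scale under enzalutamide, averaged over radiation (adjusted p = 0.00123 and 1.91e-05). KLK3 and FKBP5, also androgen-responsive, had -0.66 and -0.26 and were not called (adjusted p = 0.690 and 0.220). CPM are shares of a library, so a change common to all genes, or fewer cells of a kind against less transcription per cell, cannot be told apart.

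RefSeq (assembly GRCh38.p14) gave upstream sequences for 31 of the 35 members. Those of the 4 members that passed the test in the most precise radiation comparison are shown in the direction of transcription, from 250 bases upstream to the base before the annotated start. That of PALB2 stops at 155 bases, where the opposite gene DCTN5 begins. Capitals mark CCAAT boxes (CCAAT on either strand) and GC boxes (GGGCGG on either strand), and lower case is all other sequence.
RAD51C, chr17:58692323-58692572, plus strand: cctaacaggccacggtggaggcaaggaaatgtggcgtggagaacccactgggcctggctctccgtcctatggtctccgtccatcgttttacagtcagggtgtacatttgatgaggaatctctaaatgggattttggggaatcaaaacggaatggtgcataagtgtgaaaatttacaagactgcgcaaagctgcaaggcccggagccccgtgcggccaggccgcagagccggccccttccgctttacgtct
PALB2, chr16:23641311-23641465, minus strand: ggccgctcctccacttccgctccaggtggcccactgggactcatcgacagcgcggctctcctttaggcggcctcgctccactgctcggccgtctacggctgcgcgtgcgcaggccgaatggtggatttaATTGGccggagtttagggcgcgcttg
XRCC3, chr14:103715452-103715701, minus strand: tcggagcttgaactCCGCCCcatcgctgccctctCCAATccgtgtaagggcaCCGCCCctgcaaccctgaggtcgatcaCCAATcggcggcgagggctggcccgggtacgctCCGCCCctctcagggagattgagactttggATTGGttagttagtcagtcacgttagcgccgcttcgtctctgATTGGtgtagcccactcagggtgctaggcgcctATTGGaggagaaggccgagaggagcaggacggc
BARD1, chr2:214809684-214809933, minus strand: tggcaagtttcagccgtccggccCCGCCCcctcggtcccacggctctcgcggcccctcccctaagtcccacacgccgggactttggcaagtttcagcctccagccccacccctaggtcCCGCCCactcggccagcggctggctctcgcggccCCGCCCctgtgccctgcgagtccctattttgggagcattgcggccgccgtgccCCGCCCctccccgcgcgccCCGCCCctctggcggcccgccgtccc
The 4 sequences differ in these letters. XRCC3 holds 5 CCAAT boxes and 3 GC boxes, BARD1 5 GC boxes, PALB2 1 CCAAT box and RAD51C neither. Over windows from 250 bases before to 50 after each start, CCAAT was found in 14 of 31 members (45.2%, against 39.7% of 27305 genes) and GGGCGG in 22 (71%, against 48.3%). The ETS motif CCGGAAGT was found in 8 members (25.8%, against 4.95%), namely BRCA2, PALB2, RAD50, MRE11, RECQL5, EME1, GEN1 and FANCD2. The E2F motif TTTCCCGC was found in XRCC2, FANCC and FANCD2 (9.68%, against 1.98%), and TTTGGCGC in 0 members. The cell cycle motif TTTGAA was found in BRIP1, FANCC and UBE2T (9.68%, against 18.2%), the E-box CACGTG in 3 members (9.68%, against 8.77%) and the p53 core motif in BLM (3.23%, against 8.06%). Both strands were searched, motifs may overlap, and a match is a description of the letters only.

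One comparison was whether 6 Gy changed transcription of these genes, in batch 1, under vehicle, and under enzalutamide. Of 35 members, RAD51C was the gene that passed an adjusted p of 0.05 in batch 1 and under vehicle, and it did so upward. 3 further members passed when radiation was averaged over enzalutamide in batch 2, the comparison with 4 samples on each side. PALB2 and XRCC3 rose by about 1.2-fold and BARD1 fell. For most of the others, the 95% interval lay within a 1.5-fold change. In batch 1, 34 members could be tested and 1 was called, where 2.82% of 25889 genes were called. Under vehicle 1 of 35 was called, against 1.10% of 28651 genes, and under enzalutamide 0, against 0.918%. At an unadjusted p under 0.05 there were 6, 7 and 6 members in these 3 comparisons, against 11.5%, 11.0% and 9.49% of all genes. Averaged over enzalutamide, 4 members were called, against 4.71% of all genes, and 10 had an unadjusted p under 0.05, against 21.8%. Over both batches without enzalutamide, with batch as a term, 2 were called (RAD51C and PALB2), against 4.05% of 29195 genes, and 11 had an unadjusted p under 0.05, against 16.1%. The median log2 fold change of the members was 0.08 in batch 1, 0.08 under vehicle and 0.03 under enzalutamide, beside -0.00, -0.01 and -0.01 over all genes. Leaving out 1 sample gave medians of 0.06 to 0.10 in batch 1. Under vehicle they ran from 0.02 (without vehicle and radiation replicate 3) to 0.16 (without vehicle and radiation replicate 4). Under enzalutamide they ran from -0.02 (without enzalutamide replicate 4) to 0.10 (without enzalutamide replicate 3), so that this sign turned with 1 sample. Values above 0 were seen in 25 of 34, 26 of 35 and 20 of 35 members, beside 49.6%, 49.1% and 47.4% of all genes. For 30, 31 and 33 members the whole 95% interval lay within a 1.5-fold change either way, beside 53.7%, 48.5% and 47.8% of all genes. The width of an interval depends on the counts, and the members were not compared with genes of like counts. The median reach of the members' intervals to either side was 0.24, 0.22 and 0.23 on the log2 scale. Changes smaller than that would mostly not reach even an unadjusted p of 0.05 with 2 replicates. The adjusted threshold was stricter, and UBE2T at -0.45 in batch 1 and RAD51C at 0.42 under enzalutamide were not called. The vehicle and enzalutamide arms were fitted in 1 model with a common estimate of the spread, and all these fits have no term for the replicate number.

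**Figure D1:**
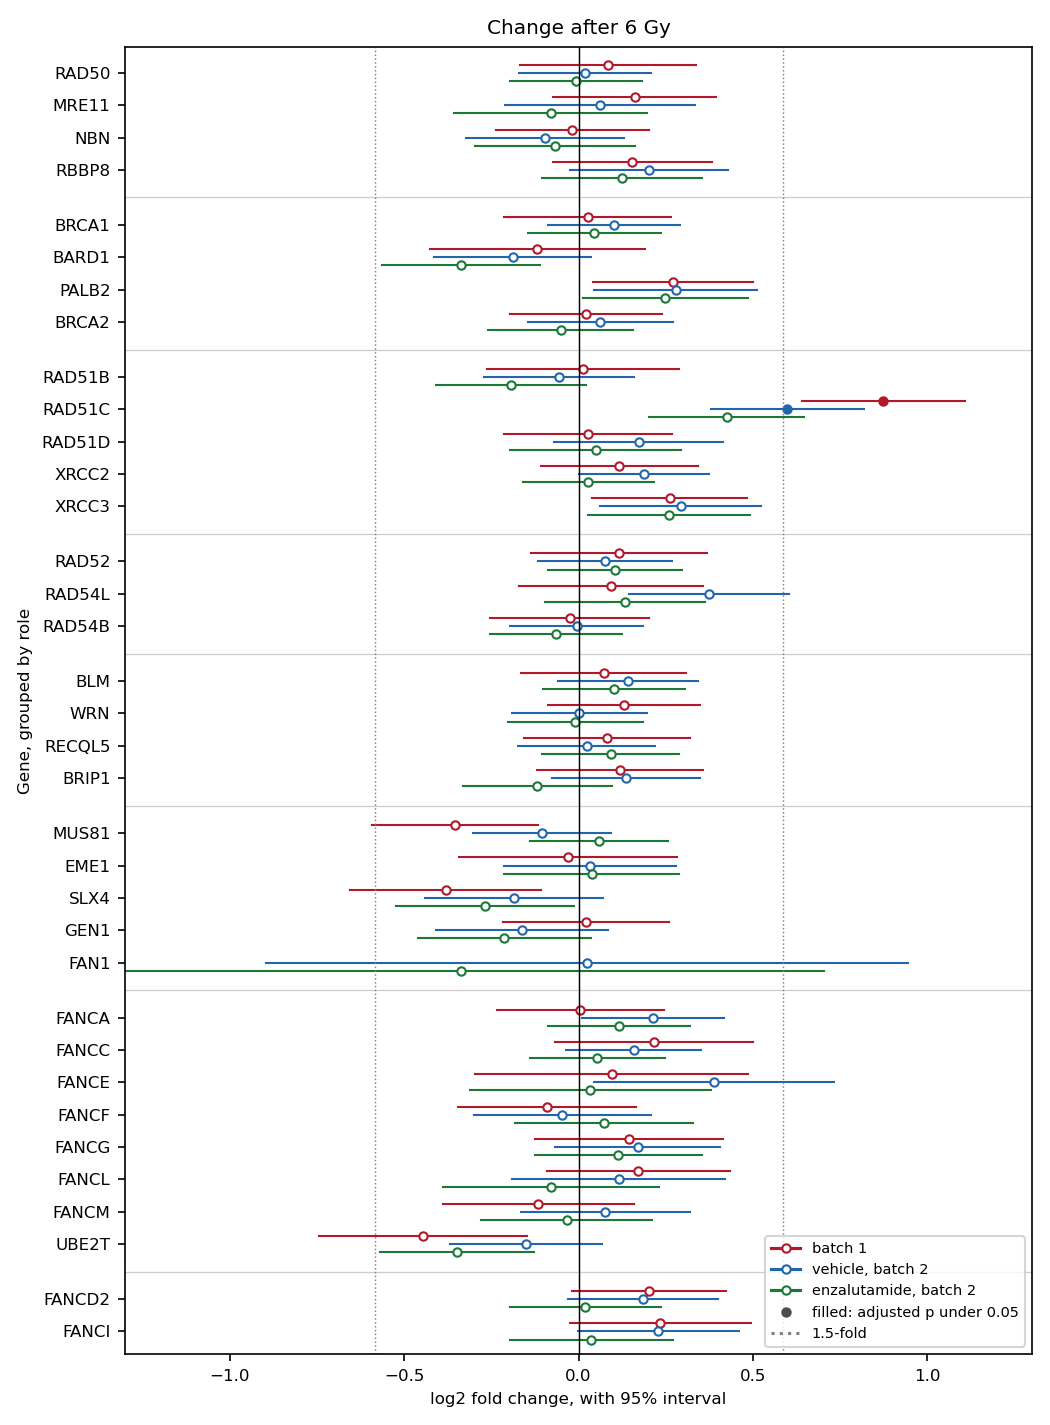
Log2 fold change after 6 Gy for each member with its 95% interval, in batch 1 (red), under vehicle (blue) and under enzalutamide (green), grouped by role. Filled points passed an adjusted p of 0.05 and dotted lines mark 1.5-fold. RAD51C lies apart, at 0.87, 0.60 and 0.42. The interval of FAN1 runs beyond the left edge under enzalutamide and FAN1 was not tested in batch 1.

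RAD51C encodes a recombinase paralog found in both paralog complexes. Its levels were 48.4 and 47.1 CPM in mock cells and 92.3 and 82.8 CPM after radiation in batch 1. They were 51.7 and 46.0 CPM under vehicle and 78.3 and 69.3 CPM with vehicle and radiation. Under enzalutamide they were 53.1 and 47.4 CPM, and 69.3 and 66.0 CPM with radiation added. Within each batch, every irradiated sample lay above every unirradiated one. The fold change was 1.83 in batch 1 (95% interval 1.56 to 2.15; log2 0.87, SE 0.107, adjusted p = 0.000366), 1.51 under vehicle (1.30 to 1.76; log2 0.60, SE 0.101, adjusted p = 0.00855) and 1.34 under enzalutamide (1.15 to 1.57; log2 0.42, SE 0.103, adjusted p = 0.103). The call under vehicle was lost without vehicle replicate 4 (log2 0.52, adjusted p = 0.138) and without vehicle and radiation replicate 3 (log2 0.51, adjusted p = 0.141), with fewer samples in the fit. Averaged over enzalutamide the log2 fold change was 0.51 (SE 0.0704, adjusted p = 0.00049), and it stayed past the threshold whichever sample of the 8 was left out. The difference of the radiation effect between batches was 0.25 (95% interval -0.06 to 0.57, adjusted p = 0.899), and between enzalutamide and vehicle -0.17 (-0.49 to 0.14), so neither difference was shown. IGBP1C, which starts head to head with RAD51C at a distance of 528 bp, had log2 fold changes of -0.08 in batch 1 and -0.07 averaged over enzalutamide (adjusted p = 0.715).

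PALB2, the protein that bridges BRCA1 and BRCA2, had levels of 39.6 and 42.0 CPM in mock cells and 51.0 and 47.7 CPM after radiation. In batch 2 it had 33.1 and 31.9 CPM under vehicle, 40.3 and 38.5 CPM with radiation, 34.7 and 28.9 CPM under enzalutamide, and 37.7 and 38.3 CPM with radiation. The irradiated samples lay above their controls in all 3 arms. The log2 fold changes were 0.27, 0.28 and 0.25, with SEs of 0.106, 0.107 and 0.109, and none passed alone (adjusted p = 0.307, 0.361 and 0.491). Averaged over enzalutamide the value was 0.26 (SE 0.0704, adjusted p = 0.0483) and over both batches 0.26 (SE 0.072, adjusted p = 0.042). Both calls lie near the threshold. The first was kept in 1 of 8 fits that left out a sample (without enzalutamide replicate 3), with adjusted p-values up to 0.140 in the others, and the second in 2 of 8. The gene DCTN5, which encodes a dynactin subunit and starts 156 bp from PALB2 on the opposite strand, had values of 0.30, 0.22 and 0.27, and 0.25 averaged over enzalutamide (SE 0.069, adjusted p = 0.059). How reads between the 2 starts were assigned is not given in the sources used here.

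XRCC3, the partner of RAD51C in the smaller paralog complex, had 66.8 and 71.2 CPM in mock cells and 82.2 and 83.2 CPM after radiation. In batch 2 it had 99.4 and 112 CPM under vehicle, 117 and 142 CPM with radiation, 107 and 120 CPM under enzalutamide, and 133 and 138 CPM with radiation. Each irradiated pair lay above its own controls, and the vehicle and radiation replicate at 117 CPM lay below the enzalutamide replicate at 120 CPM. The log2 fold changes were 0.26, 0.29 and 0.26, and 0.28 averaged over enzalutamide (SE 0.0696, adjusted p = 0.0381). Over both batches the value was 0.27 (adjusted p = 0.0562). The averaged call was kept in 3 of 8 fits that left out a sample, with adjusted p-values up to 0.146. XRCC3 overlaps KLC1, a kinesin light chain gene, whose averaged value was 0.13 (adjusted p = 0.157). ZFYVE21, which starts 359 bp away in the other direction, had 0.17 (adjusted p = 0.187). Use of strand in the counting is not given in the sources used here, so reads of overlapping genes cannot be told apart.

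BARD1, the obligate partner of BRCA1, went the other way. Its levels were 137 and 171 CPM in mock cells and 129 and 155 CPM after radiation, which overlap. In batch 2 they were 244 and 245 CPM under vehicle, 228 and 202 CPM with radiation, 251 and 205 CPM under enzalutamide, and 179 and 182 CPM with radiation. The irradiated samples lay below their controls in the vehicle and enzalutamide arms. The log2 fold changes were -0.12 in batch 1 (SE 0.142), -0.19 under vehicle (SE 0.104) and -0.34 under enzalutamide (SE 0.105, adjusted p = 0.282), and -0.26 averaged over enzalutamide (SE 0.0702, adjusted p = 0.0484). That call was kept in 2 of 8 fits that left out a sample, with adjusted p-values up to 0.171, and was lost with another scaling of the libraries (RLE factors). The head-to-head long noncoding RNA SNHG31 had an averaged value of -0.19 (adjusted p = 0.174).

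**Figure D2:**
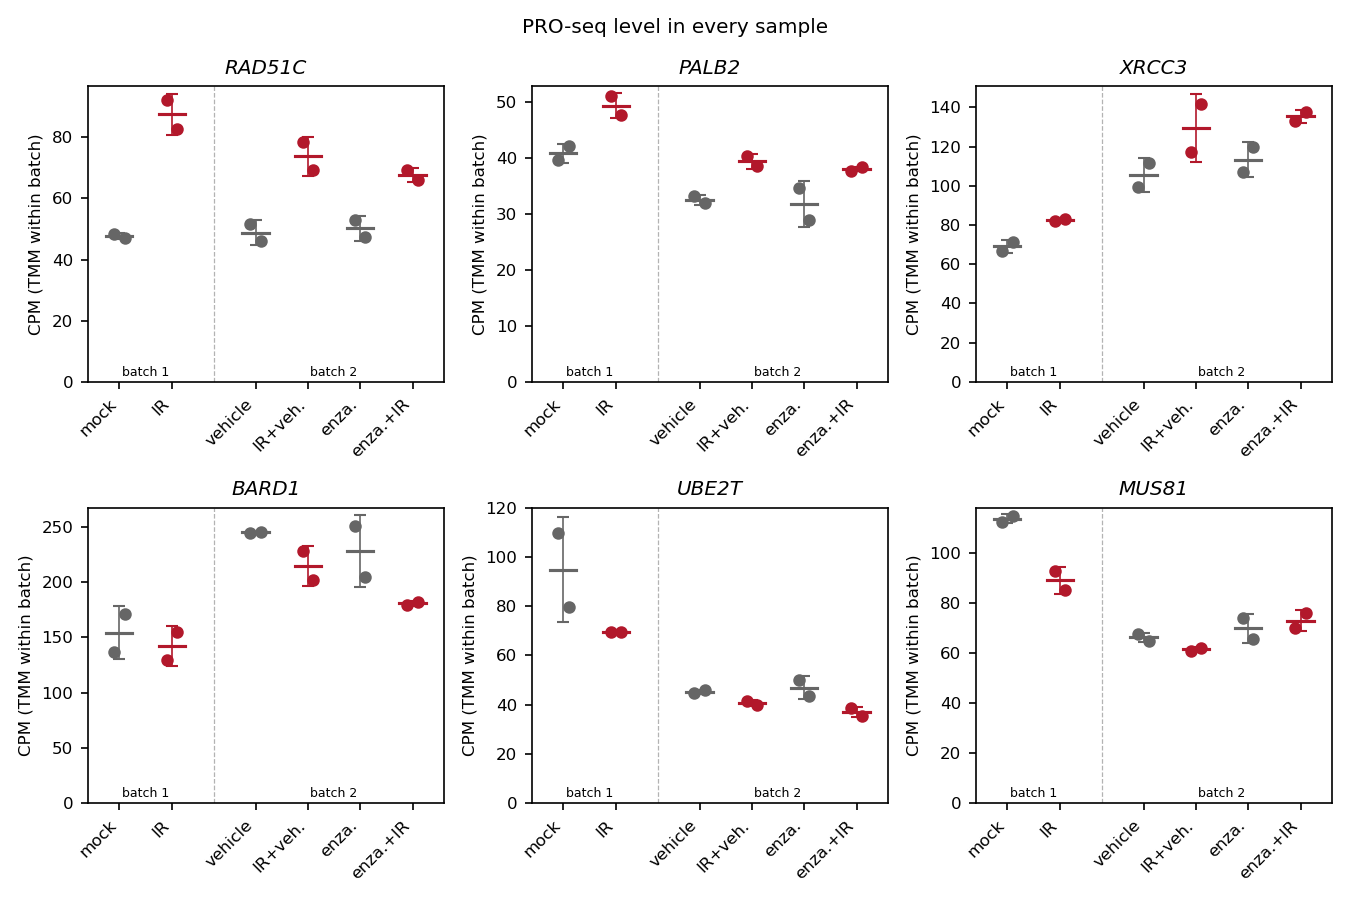
TMM-scaled CPM of 6 members in each replicate (points), with the mean and SD of 2 replicates (bars), for controls (grey) and irradiated samples (red); the dashed line separates the batches, which were scaled separately. RAD51C separates irradiated from control samples in all 3 arms, while the replicates of UBE2T in mock cells lie at 110 and 79.8 CPM.

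Among the end-resection genes, none of 4 was called after radiation. RBBP8, which starts resection, had averaged and both-batch values of 0.16 and 0.17 (adjusted p = 0.186 and 0.218). Of the MRE11 complex, MRE11 had values of 0.16, 0.06 and -0.08 in batch 1, under vehicle and under enzalutamide, NBN -0.10 to -0.02 and RAD50 -0.01 to 0.08. Of the other BRCA mediators, BRCA1 had values of 0.03, 0.10 and 0.05, and BRCA2 of 0.02, 0.06 and -0.05. Their intervals in batch 1 ran from -0.21 to 0.26 and from -0.20 to 0.24. The remaining paralogs RAD51B, RAD51D and XRCC2 had averaged values of -0.12, 0.11 and 0.11, none called, and differences between the 5 paralogs were not tested. RAD52, RAD54L and RAD54B, which anneal strands or remodel DNA around the filament, gave 0 calls. RAD54L had the largest value of the 3, 0.37 under vehicle (SE 0.106, adjusted p = 0.163), with 0.09 in batch 1 and 0.13 under enzalutamide. The helicases BLM, WRN, RECQL5 and BRIP1 had values between 0.07 and 0.13 in batch 1 and between -0.12 and 0.10 under enzalutamide, and none had an unadjusted p under 0.05 in any radiation comparison. FANCD2 and FANCI, the pair that receives ubiquitin, had values of 0.20 and 0.23 in batch 1, 0.18 and 0.23 under vehicle, and 0.02 and 0.04 under enzalutamide. None was called (over both batches, adjusted p = 0.214 and 0.162).

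The nucleases were the role group with the lowest median after radiation, -0.19 over 4 tested genes in batch 1 and -0.14 over 5 genes averaged over enzalutamide, and none was called. The averaged median is the value of FAN1, which had only 5 to 19 counts per sample in batch 2. SLX4, the scaffold that holds several nucleases, had 24.5 and 24.7 CPM in mock cells and 18.2 and 19.6 CPM after radiation. In batch 2 it had 26.0 and 29.0 CPM under vehicle, 25.6 and 22.8 CPM with radiation, 31.3 and 34.6 CPM under enzalutamide, and 28.7 and 25.9 CPM with radiation. Its groups did not overlap in any arm. Its log2 fold changes were -0.38, -0.19 and -0.27 (adjusted p = 0.194, 0.576 and 0.497). MUS81, the catalytic subunit of the nuclease formed with EME1, had 113 and 115 CPM in mock cells and 93.1 and 85.3 CPM after radiation, a log2 fold change of -0.35 (SE 0.11, adjusted p = 0.154). In batch 2 its values were -0.11 under vehicle and 0.06 under enzalutamide. MUS81 overlaps EFEMP2, an extracellular matrix gene called after radiation under vehicle at 2.72 (adjusted p = 0.0178), with 9.82 and 10.6 CPM under vehicle and 21.6 and 114 CPM with radiation. The 2 irradiated EFEMP2 values differ widely, and MUS81 had 61.1 and 62.2 CPM in those samples. EME1 had -0.03, 0.03 and 0.04, while MRPL27, which starts 45 bp away in the other direction and encodes a mitochondrial ribosomal protein, was called at 0.25 averaged over enzalutamide (adjusted p = 0.044) and 0.33 over both batches (adjusted p = 0.016). GEN1, which cuts Holliday junctions, had 0.02, -0.16 and -0.21. FAN1 was listed at 0.25 to 1.01 CPM in the 12 samples, too low to be tested in batch 1, and its 95% interval under vehicle ran from -0.90 to 0.94. It overlaps MTMR10, which was between 25.7 and 30.8 CPM.

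None of the 8 genes of the Fanconi core group was called. FANCA, FANCC, FANCE, FANCG and FANCL had values between 0.01 and 0.22 in batch 1 and between 0.12 and 0.39 under vehicle, FANCE being highest there with a wide interval (0.05 to 0.73). FANCF and FANCM had -0.09 and -0.12 in batch 1. UBE2T, singled out here after its values were seen, had 110 and 79.8 CPM in mock cells and 69.5 and 69.4 CPM after radiation, and in batch 2 44.7 and 45.8 CPM under vehicle, 41.6 and 39.9 CPM with radiation, 50.1 and 43.6 CPM under enzalutamide, and 38.5 and 35.5 CPM with radiation. Its groups did not overlap in any arm, with the irradiated samples lower. The log2 fold changes were -0.45, -0.15 and -0.35 (adjusted p = 0.151, 0.593 and 0.235), and -0.25 averaged over enzalutamide (SE 0.0707, adjusted p = 0.0615). Counted over the list, groups did not overlap with irradiated samples higher for 14 of 35 members in batch 1 (20.3% of all genes tested), 15 under vehicle (21.8%) and 10 under enzalutamide (18.6%). With irradiated samples lower the counts were 4 (19.7%), 6 (22.8%) and 5 (19.5%). Over the 8 samples of batch 2, all 4 irradiated samples lay above all 4 others for PALB2, RAD51C, RAD54L and FANCG (6.84% of all genes) and below them for UBE2T (5.41%).

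The t1 and t2 libraries of batch 1 were also read apart. CPM and ratios of these libraries use the library total without TMM factors. In mock cells the median log2 ratio of t2 over t1 was -0.08 over 34 members, beside 0.13 over all genes tested. After radiation it was 0.18 over the members, beside -0.06 over all genes. The mean ratio had opposite signs in mock and irradiated cells for 28 of 34 members (82.4%), and for 77.6% of all genes tested. Across members the correlation of the mock and irradiated ratios was -0.79, and across all genes -0.61. These are descriptions across genes, which share libraries and are not independent. The t1 libraries made up 42.9 and 61.1% of the summed counts in the mock replicates and 60.4 and 44.4% in the irradiated ones. BARD1 had 158 and 203 CPM in mock t1 libraries and 121 and 116 CPM in mock t2 libraries, but 114 and 99.6 CPM in irradiated t1 and 153 and 196 CPM in irradiated t2 libraries. The mock t1 values thus lay beside the irradiated t2 values, and the mock t2 beside the irradiated t1 values. Whether the names t1 and t2 stand for the same thing in both groups, or were exchanged in one of them, was not tested, and values by t1 or t2 alone hold only if they match. A comparison by t1 libraries alone thus gave BARD1 a log2 fold change of -0.84 (adjusted p = 0.00324) and by t2 libraries alone 0.66 (adjusted p = 0.00116). UBE2T had -0.02 (adjusted p = 0.944) by t1 and -0.95 (adjusted p = 7.94e-05) by t2 libraries, and MUS81 -0.03 (adjusted p = 0.926) and -0.72 (adjusted p = 0.000554). RAD51C was higher after radiation in both kinds, with 39.8 and 42.2 CPM against 94.0 and 76.5 CPM in t1 and 54.5 and 53.3 CPM against 90.7 and 86.4 CPM in t2 libraries. PALB2 had 0.23 and 0.36, and XRCC3 0.25 and 0.28. By t1 alone 3 members were called (RAD51C, BARD1 and RAD54B), against 17.3% of all genes, and by t2 alone 21, against 44.7%. With t1 and t2 thinned to equal totals before summing, an alternative chosen after seeing the data, 3 members were called in batch 1, against 5.14% of all genes: RAD51C, MUS81 at -0.41 (adjusted p = 0.0168) and UBE2T at -0.44 (adjusted p = 0.0369). BARD1 then had -0.06 (adjusted p = 0.830). The value of t1 and t2 as separate conditions was not tested, since the labels do not define them.

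**Figure D3:**
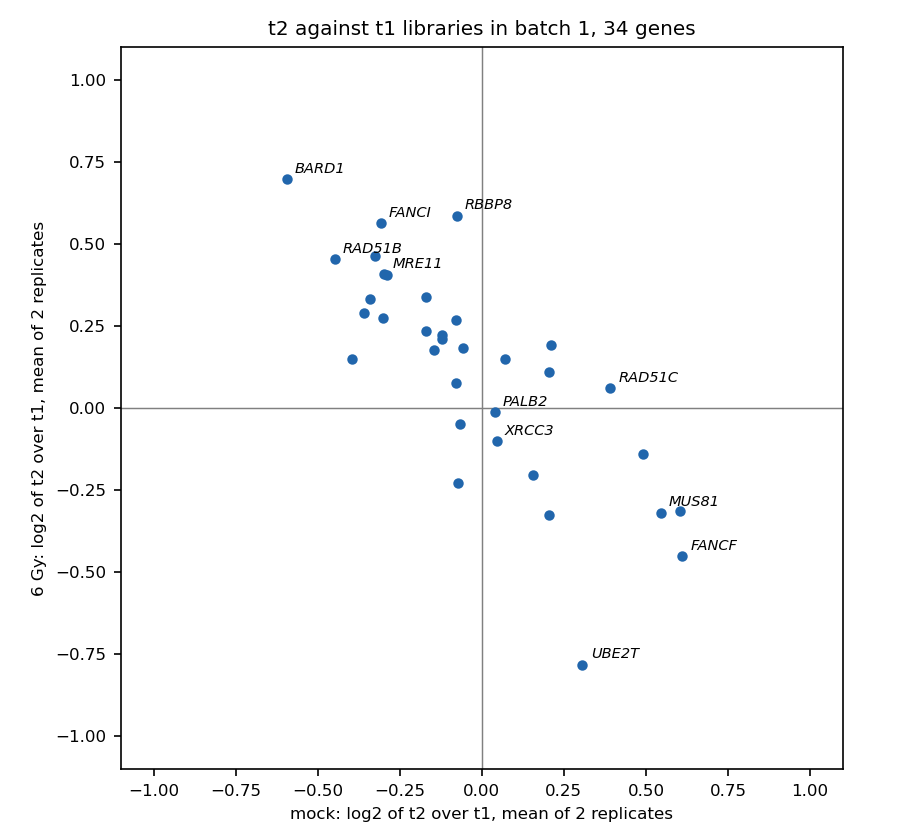
Log2 ratio of the t2 over the t1 library of a batch 1 replicate, mean of 2 replicates, in mock cells (horizontal axis) and after 6 Gy (vertical axis), for 34 members. Most points lie in the upper left or lower right (28 of 34), with BARD1 at -0.59 and 0.70 and UBE2T at 0.31 and -0.78; PALB2 and XRCC3 lie near the origin.

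Enzalutamide was compared with vehicle without radiation, with radiation, and averaged over it. No member was called in any of the 3 by edgeR's test, where 0.0105%, 0.0105% and 0.0628% of 28651 genes were called. DESeq2 also called 0 members in each (0.0454%, 0.0244% and 0.188% of all genes), and 0 after radiation under enzalutamide (1.08%). At an unadjusted p under 0.05 there was 1 member without radiation (SLX4), 2 with radiation (BARD1 and MUS81) and 4 averaged (SLX4, RECQL5, MUS81 and BARD1), against 2.56%, 3.00% and 6.21% of all genes. Every tested member except FAN1 had an averaged 95% interval within a 1.5-fold change, 34 of 35, against 68.7% of all genes. The members' intervals reached a median of 0.15 to either side, and genes of like counts were not compared here either. The 3 members with the smallest p averaged over radiation were as follows. SLX4, whose levels are given above, had 0.22 (SE 0.0777, adjusted p = 0.736; 95% interval 0.05 to 0.38), with 31.3 and 34.6 CPM under enzalutamide above 26.0 and 29.0 CPM under vehicle. RECQL5, a helicase that removes recombinase filaments, had 47.8 and 50.9 CPM under vehicle and 54.2 and 53.6 CPM under enzalutamide, and with radiation 49.5 and 50.9 CPM without and 60.2 and 54.8 CPM with the drug. All 4 enzalutamide samples of RECQL5 lay above all 4 vehicle samples, at 0.16 (95% interval 0.03 to 0.29, adjusted p = 0.736). MUS81 had 67.6 and 65.1 CPM under vehicle and 74.2 and 65.9 CPM under enzalutamide, and with radiation 61.1 and 62.2 CPM without and 70.3 and 76.0 CPM with the drug, at 0.16 averaged (adjusted p = 0.755). FANCF, the other member besides RECQL5 whose 4 enzalutamide samples lay above all 4 vehicle samples, had 0.15 (adjusted p = 0.833), where 1.35% of all genes were so separated. No member had all 4 below (1.24% of all genes). BARD1 had the lowest averaged value apart from FAN1, -0.17 (95% interval -0.32 to -0.02, adjusted p = 0.769). BRCA1, BRCA2, PALB2 and RAD51C had averaged values of 0.07, -0.03, -0.04 and -0.04, with intervals between -0.19 and 0.19.

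**Figure D4:**
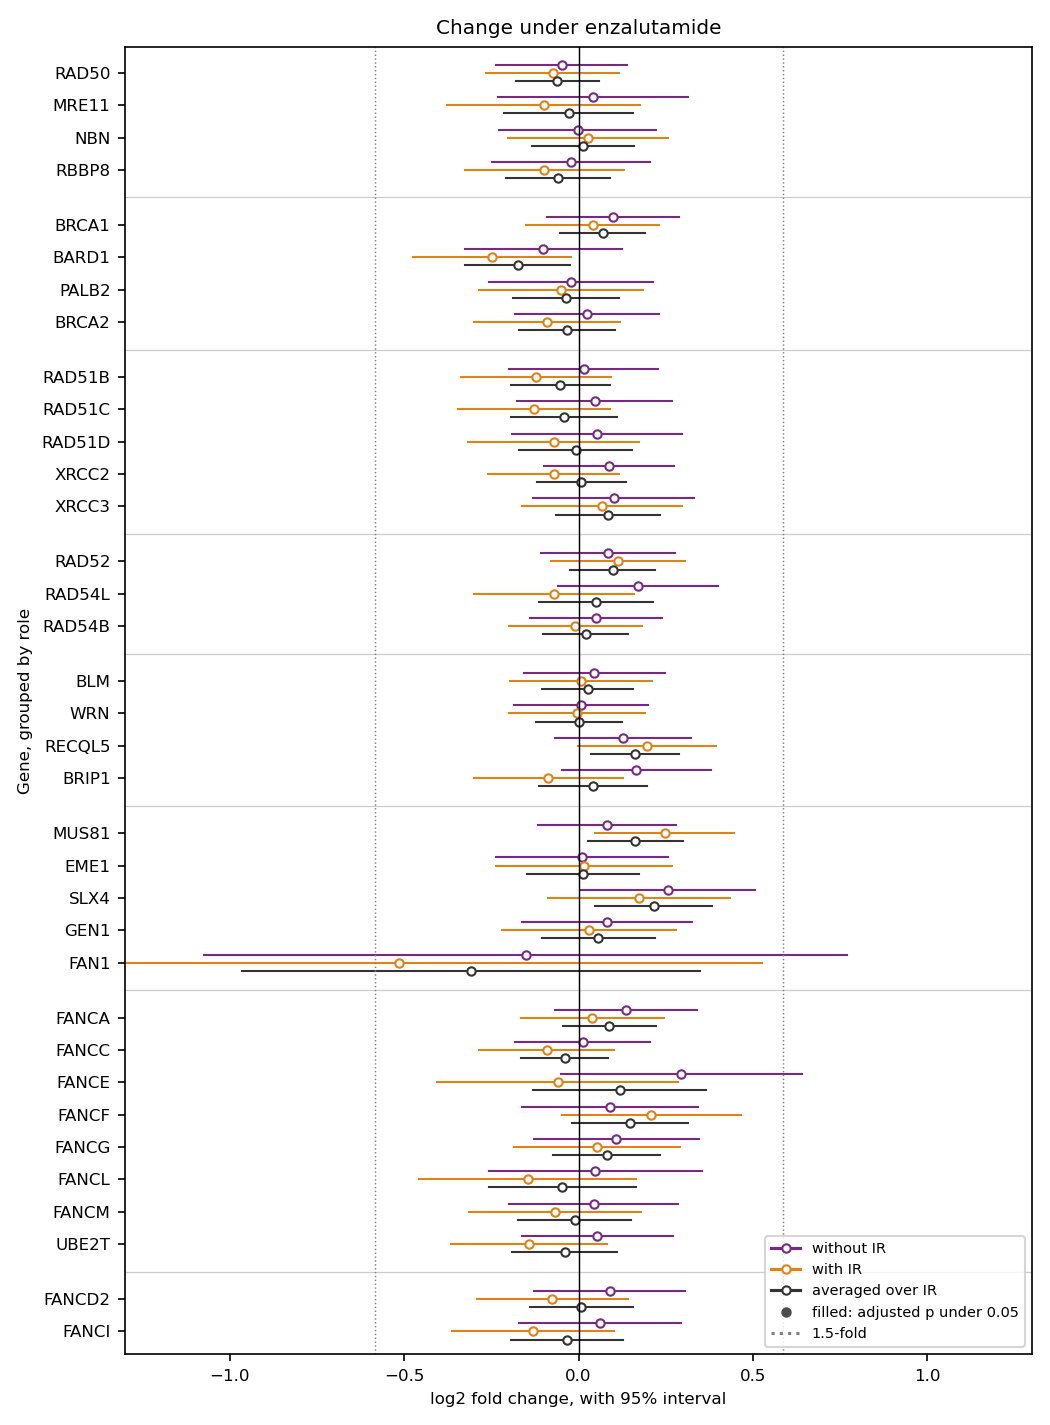
Log2 fold change under enzalutamide against vehicle for each member with its 95% interval, without radiation (purple), with radiation (orange) and averaged over radiation (black), grouped by role as in the radiation plot. No point is filled, since none passed an adjusted p of 0.05; all averaged intervals except that of FAN1 lie between the dotted lines at 1.5-fold.

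The sign of the enzalutamide values differed between irradiated and unirradiated cells over the list. Without radiation 29 of 35 members had a value above 0 (51.5% of all genes), with a median of 0.05 beside 0.01 over all genes. With radiation 13 of 35 were above 0 (49.6%), with a median of -0.07 beside -0.00. Seen from the other side, the interaction, which is the radiation effect under enzalutamide minus that under vehicle, was below 0 for 29 members and above 0 for 6 (47.7% of all genes), with a median of -0.10 beside -0.01. Leaving out 1 sample moved the median from -0.05 (without enzalutamide replicate 3) to 0.12 (without enzalutamide replicate 4) for the drug without radiation. With radiation it moved from -0.09 (without vehicle and radiation replicate 4) to 0.02 (without vehicle and radiation replicate 3). For the interaction it moved from -0.16 (without enzalutamide replicate 4) to -0.00 (without enzalutamide replicate 3). The signs of the first pair of medians thus turned with 1 sample. These comparisons share samples and the members share libraries, and no member reached an unadjusted p under 0.05 for the interaction (1.20% of all genes did). edgeR and DESeq2 called 0 members for it, and each called 0 of all 28651 genes. Intervals of the interaction were wide, reaching a median of 0.32 to either side. The largest negative values apart from FAN1 belonged to FANCE (-0.35), BRIP1 (-0.25) and RAD54L (-0.24). The batch difference of the radiation effect, batch 1 minus batch 2, was called for 0 members by edgeR (0.106% of 29195 genes) and 0 by DESeq2 (0.0959%). By edgeR no member had an unadjusted p under 0.05 for the batch difference (5.66% of all genes did). Its lowest values were those of FANCE and UBE2T, both -0.32, RAD54L, -0.30, and MUS81, -0.27, with an interval for MUS81 of -0.56 to 0.01.

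The 11 members known to peak in S or G2 phase (BRCA1, BRCA2, BARD1, BRIP1, RAD54L, BLM, EME1, FANCA, FANCD2, FANCI and UBE2T) had a median log2 fold change after radiation of 0.03 in batch 1, 0.14 under vehicle and 0.04 under enzalutamide. For the other members the medians were 0.09, 0.07 and 0.03. BARD1 was the gene called among the 11 averaged over enzalutamide, and the called genes among the others were RAD51C, PALB2 and XRCC3. Of 42 further genes of the pathway (among them the single-strand binding proteins RPA1 to RPA3, the exonuclease EXO1, partners of BLM, accessory subunits of the core complex and the BRCA1-A complex), 41 were tested averaged over enzalutamide. Of these 1 was called, against 4.71% of all genes, and 10 had an unadjusted p under 0.05, against 21.8%. EME2, a second partner of MUS81, was called at 0.24 (SE 0.0614, adjusted p = 0.0388). The other 9 with an unadjusted p under 0.05, including RMI2 (0.22), EXO1 (0.23), SWI5 (0.23) and FAAP100 (0.20), were all higher. In batch 1, under vehicle and under enzalutamide 0 of these genes were called after radiation, against 2.82%, 1.10% and 0.918% of all genes. For enzalutamide against vehicle 0 were called without radiation, with it and averaged, against 0.0105%, 0.0105% and 0.0628%.

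Levels between genes were compared per kb of gene span, since longer genes collect more counts. The highest densities fell on short genes, MUS81 spanning 7980 bp, FANCF 3291 bp and UBE2T 10280 bp. Whether counts grow in proportion to span was not tested, so the order cannot be read as one of transcription rates. Under vehicle, MUS81 had the highest density at 8.32 ± 0.224 CPM per kb (SD, n = 2), followed by XRCC3 at 5.92 ± 0.490, FANCF at 5.53 ± 0.113 and UBE2T at 4.40 ± 0.073 CPM per kb. XRCC3 and FANCF did not differ beyond their spread. The median gene had 1.13 CPM per kb. BRCA2 (1.25 CPM per kb), FANCC (1.23), RECQL5 (1.22), RAD51C (1.13), RAD54B (1.13) and RAD51D (1.12) followed each other within their spread, and so did BRCA1 (0.865) and PALB2 (0.852). RAD51B, which spans 863318 bp, had 0.260 CPM per kb, and FAN1 was lowest at 0.0218 CPM per kb. Of 34 neighbouring pairs in this order, 19 differed by no more than the larger of their SDs. In mock cells MUS81 was also highest (14.3 CPM per kb), followed by FANCF and UBE2T (9.25 and 9.22 CPM per kb, not different beyond their spread). The rank order differed little between groups, with Spearman's rho of 0.896 to 0.994 over 35 genes in any pair of the 6 groups, as a description of libraries that share gene lengths. After radiation RAD51C moved from 1.11 to 2.03 CPM per kb in batch 1 and from 1.13 to 1.72 CPM per kb under vehicle.

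**Figure D5:**
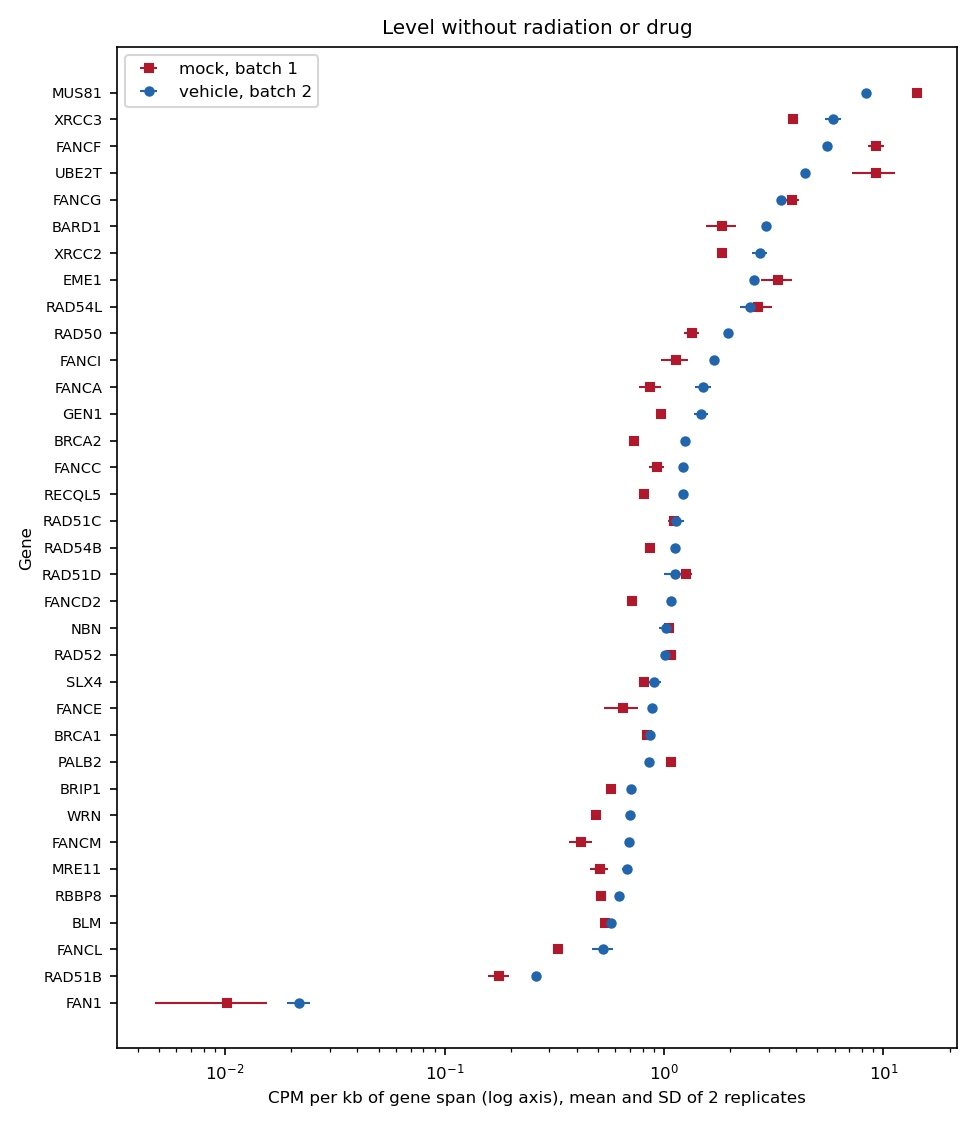
Level of each member in cells without radiation or drug, in CPM per kb of gene span on a log axis, as mean and SD of 2 replicates, for mock cells of batch 1 (red squares) and vehicle cells of batch 2 (blue circles), ordered by the vehicle level. MUS81 is highest in both, and RAD51B (0.260 under vehicle) and FAN1 (0.0218) are lowest.

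RefSeq places 14 genes head to head with 13 of the members, with starts within 1000 bp. Of the 13 partners with an identifier, MRPL27 was called after radiation and the other 12 were not, in the averaged and both-batch comparisons. In these 4.71% and 4.05% of all genes were called. BRCA1 lies opposite NBR1 and NBR2 (0.10 and 0.11 averaged over enzalutamide), SLX4 opposite the nuclease gene DNASE1 (0.06, beside -0.23 for SLX4) and GEN1 opposite SMC6 (0.06, beside -0.19 for GEN1). PALB2 and DCTN5 had like values, while RAD51C and IGBP1C, and EME1 and MRPL27, did not, and these differences between neighbours were not tested. Overlapping protein-coding genes were found for 13 members, in 14 pairs.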

How the data were processed

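PRO-seq read counts per Ensembl gene, whole numbers judged from the values, were deposited by the authors as 1 table per batch. The submitters' processing notes name cutadapt 1.8.1, Bowtie2 2.4.4, SAMtools 1.9 and the build hg38. The counting tool, annotation, use of strand and treatment of duplicates are not given in the sources used here. Of 60605 identifiers, 60463 had a row in the names table. Members and lists were chosen with earlier results of these data known. Groups and replicate numbers come from the labels, and t1 and t2 counts of a replicate were summed. edgeR 4.0.16 (R 4.3.3, limma 3.58.1) was used with filterByExpr, TMM factors, glmQLFit and glmQLFTest. P-values are two-sided and Benjamini-Hochberg adjusted over all genes tested, with a threshold of 0.05. SEs were derived from the F statistic, and 95% intervals from the t distribution. Batch 2 was fitted with its 8 samples together. The fits were also run on simulated counts with changes planted in known genes. That simulation held no shared replicate differences and no t1 and t2 libraries, so it cannot show how the fits behave with these. Replicates differed by 3.47 to 6.72 times sampling noise (chi-square per degree of freedom), so no 2 were merged as 1 library. Members past the threshold, and the 3 members of lowest p in the averaged enzalutamide comparison, are given in every sample by rule, and other members by role. Alternatives were DESeq2 1.42.0, other scalings, no filter, a replicate block, the compared groups alone, t1 or t2 alone, thinning, and leaving out each replicate. Promoters and gene spans are RefSeq's (GRCh38.p14).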

Additional observations from a re-analysis of the deposited data

How the results depend on the processing

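The limits are 2 replicates per group, summed t1 and t2 libraries of unknown meaning, and counting whose use of strand is not given. In the counts of members called in the 10 comparisons, 111 alternative values lay within 1.5 times the reported count and 28 did not. Many of the 111 repeat a count of 0, as in the 3 enzalutamide comparisons and the interaction, where few or 0 of all genes were called. The 111 and 28 therefore do not measure how stable the calls are. No member called in a reported comparison changed its sign in these alternatives. BARD1 and RAD54B, not called in batch 1 with t1 and t2 summed, were called there in opposite directions by t1 alone (-0.84 and -0.47) and by t2 alone (0.66 and 0.50). Without the filter, 2 members were called in batch 1 (2.30% of all genes), 2 under vehicle (1.14%) and 1 under enzalutamide (1.01%). With the replicate number as a block, 7 were called in batch 1 (9.01% of all genes), 3 under vehicle (4.59%), 4 under enzalutamide (3.32%), 9 averaged over enzalutamide (15.0%) and 7 over both batches (6.69%); it changed no other count. The labels share numbers between groups without saying what they mark, and replicate differences correlated across genes at 0.22 in batch 1 and 0.134 to 0.301 in batch 2, above 0.1 in all 7 pairs of groups. With 2 numbers per batch this is a hint from the data, not the design, so the block is given as an alternative. By t1 libraries alone, 3 members were called in batch 1 (17.3% of all genes) and 1 over both batches (2.93%); by t2 libraries alone 21 (44.7%), 1 (2.37%), and 8 for the batch difference (20.3%); thinned to equal totals, which was chosen after seeing the data, 3 (5.14%) and 5 (4.90%). Leaving out 1 replicate gave RAD51C log2 fold changes of 0.80 to 0.95 in batch 1 and 0.51 to 0.68 under vehicle. For RAD51C these were 0.46 to 0.57 averaged over enzalutamide and 0.67 to 0.82 over both batches. Averaged over enzalutamide, PALB2 ran from 0.22 to 0.32, XRCC3 from 0.22 to 0.33 and BARD1 from -0.31 to -0.18. Counts of members called are not listed for these fits, since the share of all genes called moved with the sample left out. When leaving out a replicate left an arm with 1 sample, that sample was assumed to vary like the other groups. RLE factors ended the call of BARD1 (adjusted p = 0.0579), and total counts those of PALB2 (0.0616) and XRCC3 (0.0795). The causes of these changes were not tested.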
